A study of Mus musculus with 2 samples.

Results

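The 10 genes described here encode parts of insulin and IGF1 (insulin-like growth factor 1) signalling in the heart. They are the growth factor gene Igf1, the receptor genes Igf1r and Insr, the docking protein genes Irs1 and Irs2, and 5 genes of IGF-binding proteins, Igfbp3, Igfbp4, Igfbp5, Igfbp6 and Igfbp7. They were selected by gene symbol from the 22882 symbols in the expression files. All 10 were found, each on 1 row. The study asked what loss of the Mediator subunit Med1 in cardiomyocytes does to gene expression in the heart. Control mice (Med1fl/fl) carry loxP sites around part of Med1 on both alleles. The csMed1-/- mice carry the same floxed alleles and a Cre recombinase driven by the α-MyHC promoter, which is active in cardiomyocytes, so other cells of the heart keep Med1. Both groups were 23 days old, of mixed sex, labelled C57BL6/J and untreated. Heart RNA of 5 mice was pooled for each genotype and each pool gave 1 library. No spread between animals or libraries can therefore be given, and no difference below was tested here.

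IGF1 and insulin bind related receptor tyrosine kinases, IGF1R and the insulin receptor, which phosphorylate the docking proteins IRS1 and IRS2. These recruit PI3-kinase and thereby activate Akt and mTOR, which promote growth, protein synthesis and glucose uptake in cardiomyocytes and restrain the FoxO transcription factors. IGF-binding proteins are secreted, hold IGFs outside the cell and either limit or prolong their action. IGFBP7 is a relative with low affinity for IGFs.

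Med1 is a coactivator that acts at regulatory DNA, so the 250 bases upstream of the annotated start (RefSeq, GRCm38.p6) are shown for the gene with the largest difference, Igf1r, for the docking protein genes, which differed in opposite directions, and for Igfbp7, the most abundant of the 10. The windows are chr7:67952007-67952256 on the plus strand (Igf1r), chr8:11008930-11009179 on the minus strand (Irs2), chr1:82291440-82291689 on the minus strand (Irs1) and chr5:77408046-77408295 on the minus strand (Igfbp7). Capitals mark matches to any of 5 motifs on either strand.
Igf1r: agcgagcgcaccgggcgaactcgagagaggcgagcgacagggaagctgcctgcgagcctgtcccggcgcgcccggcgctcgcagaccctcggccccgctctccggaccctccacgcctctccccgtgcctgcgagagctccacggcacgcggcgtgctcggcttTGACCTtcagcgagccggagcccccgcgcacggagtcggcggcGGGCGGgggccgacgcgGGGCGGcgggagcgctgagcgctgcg
Irs2: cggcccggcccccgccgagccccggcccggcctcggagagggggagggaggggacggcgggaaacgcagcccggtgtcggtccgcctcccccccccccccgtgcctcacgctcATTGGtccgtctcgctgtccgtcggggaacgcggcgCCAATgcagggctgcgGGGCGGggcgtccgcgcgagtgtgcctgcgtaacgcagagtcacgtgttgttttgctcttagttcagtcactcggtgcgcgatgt
Irs1: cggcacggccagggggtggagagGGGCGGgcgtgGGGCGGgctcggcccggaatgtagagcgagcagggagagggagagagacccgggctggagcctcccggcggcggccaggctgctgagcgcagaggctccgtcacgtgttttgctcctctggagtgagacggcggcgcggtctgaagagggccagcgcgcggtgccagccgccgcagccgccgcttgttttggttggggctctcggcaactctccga
Igfbp7: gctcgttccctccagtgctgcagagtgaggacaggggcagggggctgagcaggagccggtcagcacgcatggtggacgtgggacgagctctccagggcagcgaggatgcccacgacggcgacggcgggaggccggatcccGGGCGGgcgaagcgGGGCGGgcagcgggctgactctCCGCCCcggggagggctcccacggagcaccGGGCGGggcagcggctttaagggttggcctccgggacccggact

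Of the 10 genes, 9 have such a window in the RefSeq table and Insr has none. The motifs were the nuclear receptor half-site AGGTCA, the FoxO site GTAAACA, the GC box GGGCGG, the TATA box TATAAA and the CCAAT box with the letters CCAAT. None of the matches overlapped. The Igf1r window held the reverse complement of the half-site from 86 to 81 bases upstream of the start and 2 GC boxes. The only other half-site among the 9 windows was in that of Igf1 (chr10:87860861-87861110, plus strand), from 161 to 156 bases upstream of the RefSeq start. That window lies inside the gene span of Igf1 given below, which comes from another annotation with an earlier start. Windows of other genes, among them Igf1r and Irs2, do not adjoin the spans given below, because their RefSeq starts lie further upstream. All distances here are counted from the RefSeq start. Of all 32851 promoter windows 14.0% held a half-site. The Irs2 window had 1 GC box and 2 CCAAT boxes, that of Irs1 had 2 GC boxes, and that of Igfbp7 had 4 GC boxes. Over all windows, 32.7% held a GC box and 33.8% a CCAAT box. The FoxO site was in none of the 9 windows and in 3.17% of all. The share of G and C was 77.6% in the window of Igf1r, 74.0% in that of Igfbp7, 72.8% in that of Irs2 and 72.4% in that of Irs1. In the other 5 windows it ran from 49.6% (Igfbp6) and 52.8% (Igf1) to 73.2% (Igfbp3), and the median over all windows was 52.4%. A match describes letters only, and the absence of one concerns this window alone.

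Expression was given as FPKM, a fragment count corrected for the length of the transcript and for library size, so levels can be compared between genes. A gene was kept if it was detected in both libraries and reached 1 FPKM in at least one, which left 10489 genes. A difference was counted when the ratio of csMed1-/- to control FPKM passed 2-fold. By this count 31.5% of the genes kept differed, 13.6% being higher and 18% lower in csMed1-/- heart, with a median log2 ratio of -0.07. All 10 genes were kept. Of them 6 were more than 2-fold higher in the csMed1-/- library (Igf1, Igf1r, Irs2, Igfbp3, Igfbp6 and Igfbp7), 0 were more than 2-fold lower, and 4 lay within 2-fold (Insr, Irs1, Igfbp4 and Igfbp5). The control level of Igf1 was under 1 FPKM and so was the csMed1-/- level of Irs1, so each was kept through the library in which it was higher. Among the 8 genes at 1 FPKM or more in both libraries, 5 were more than 2-fold higher and 0 lower. The shares of all genes given above belong to the wider filter, and no share under this stricter one was computed. The count of 5 among 8 thus has no matching background, and nothing particular to these genes can be read from it.

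**Figure D1:**
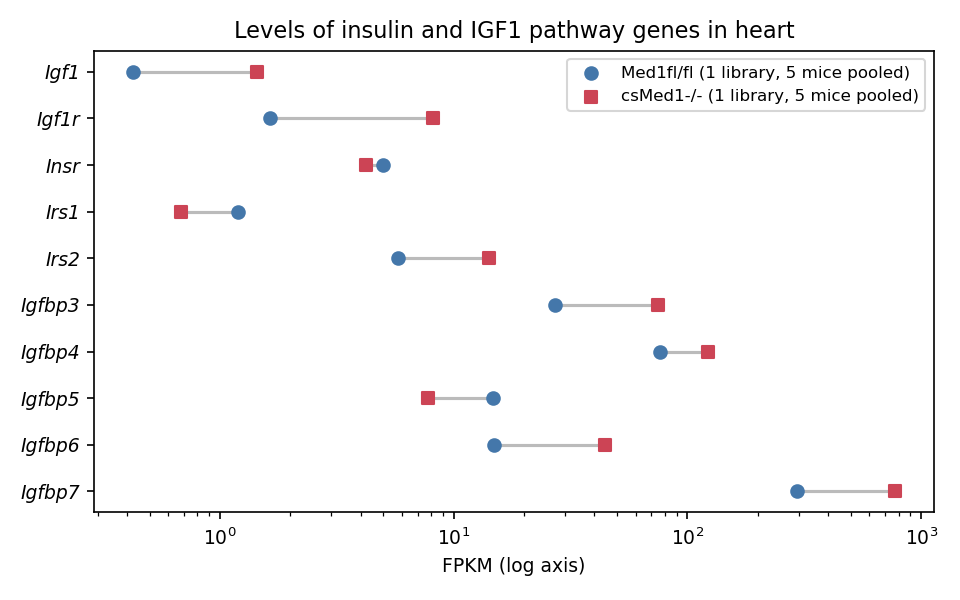
FPKM (log axis) of the 10 genes in the Med1fl/fl library (circles) and the csMed1-/- library (squares), 1 library of 5 pooled hearts each, with a grey line joining the values of a gene. Igf1r shows the widest gap, from 1.64 to 8.12 FPKM, while Insr, Irs1 and Igfbp5 are lower in csMed1-/- heart.

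The libraries as a whole differed in several ways. Med1 itself had 3.38 FPKM in Med1fl/fl heart and 0.412 FPKM in csMed1-/- heart, a value that can include reads outside the deleted exons. Summed over all genes, FPKM reached 780366 for Med1fl/fl and 716365 for csMed1-/-. Read totals are not stated in the files. Steps between the lowest values would give a csMed1-/- library 1.39 times as deep as the control library, but only if FPKM was scaled by read total alone, which is not stated. Of 10 cardiomyocyte markers, 9 had a row and 7 were kept, of which 5 were more than 2-fold lower and 0 higher (median log2 ratio -1.64). The other 2, Actc1 and Mb, are listed at 0 in control, although both are abundant in any heart, so a value of 0 in these files need not mean absence. The 8 fibroblast markers summed to 503 FPKM in Med1fl/fl heart and 1193 FPKM in csMed1-/- heart (ratio 2.37), with 4 more than 2-fold higher, 1 lower and a median log2 ratio of 0.94. The sum rested mainly on the collagen genes Col1a1 and Col1a2, and without these 2, left out after the values were seen, it was 278 and 377 FPKM (ratio 1.36). The 8 endothelial markers summed to 442 and 339 FPKM (ratio 0.766, 1 higher and 3 lower, median log2 ratio -0.58). The 8 markers of smooth muscle and pericytes had a median log2 ratio of -0.45, with 2 more than 2-fold higher and 2 lower. Their sum went from 734 to 1114 FPKM through Cnn1 alone, at 4.32 and 622 FPKM, and without Cnn1, left out after the values were seen, it was 730 and 492 FPKM (ratio 0.674). All 7 macrophage markers had a row (Adgre1 under its older symbol Emr1), at a sum of 208 and 292 FPKM, and 0 of the 5 kept passed 2-fold. Of 4 atrial markers 3 were kept and 2 were more than 2-fold higher, led by Nppa. Myl7 stood at 1.42 and 1.10 FPKM, and Sln, at 0.356 and 0.174 FPKM, was not kept. The study treats Nppa as an indicator of heart failure that ventricular cells also secrete, so it does not mark atrial cells alone. Of 7 erythroid markers only Alas2 had a row, at 35.8 and 82.1 FPKM. None of the fibroblast, endothelial, smooth muscle and pericyte, macrophage or atrial markers with a row was at 0.

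The ligand Igf1 (chromosome 10, 87858265 to 87937042, plus strand, GRCm38) encodes a growth factor that is made mainly by the liver and also within tissues. It had 0.423 FPKM in Med1fl/fl heart and 1.44 FPKM in csMed1-/- heart, a 3.40-fold higher level with a log2 ratio of 1.77. In control its level exceeded that of 1.65% of the genes kept, and in csMed1-/- heart that of 14.7%. The ratio depended on how low values were treated, since a pseudocount of 1 FPKM brought the log2 ratio to 0.78, within 2-fold. Genes of such low level often differ in these libraries. Of the 1744 genes with a mean level within 2-fold of that of Igf1, 41.7% passed the 2-fold threshold in either direction and 16.4% upward. The annotation (GENCODE M21) lists 8 coding transcripts of Igf1, from 510 to 7052 bases, and FPKM depends on which of them the length refers to.

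Igf1r (chromosome 7, 67952827 to 68233668, plus strand), which encodes the IGF1 receptor, showed the largest difference of the 10 genes. Its level was 1.64 FPKM in Med1fl/fl heart and 8.12 FPKM in csMed1-/- heart, which is 4.96-fold higher (log2 ratio 2.31). This ratio was above that of 96.9% of the genes kept. Igf1r has 1 coding transcript of 11409 bases in 21 exons. It was also the single gene of the 10 past 4-fold. Insr (chromosome 8, 3122061 to 3279617, minus strand), which encodes the insulin receptor, had 5.00 FPKM in Med1fl/fl heart and 4.20 FPKM in csMed1-/- heart, at a ratio of 0.840 (log2 ratio -0.25). Thus the receptor genes, whose products can pair in hybrid receptors, did not differ alike. Within the control library Igf1r stood at 0.327 times the level of Insr, and within the csMed1-/- library at 1.93 times. Such a ratio between genes of the same library does not depend on how the libraries were scaled, and it shifted 5.90-fold.

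Irs2 (chromosome 8, 10984681 to 11008458, minus strand) and Irs1 (chromosome 1, 82233101 to 82291416, minus strand) encode the docking proteins that link both receptors to PI3-kinase. Irs2 had 5.78 FPKM in Med1fl/fl heart and 14.2 FPKM in csMed1-/- heart, which is 2.45-fold higher (log2 ratio 1.30). Irs1 had 1.20 FPKM in Med1fl/fl heart and 0.678 FPKM in csMed1-/- heart, which is 1.77-fold lower (log2 ratio -0.82) and within the 2-fold threshold. Irs2 was thus the more abundant in either library, at 4.83 times the level of Irs1 in Med1fl/fl heart and 20.9 times in csMed1-/- heart. The shift between these ratios was 4.33-fold, and the second rests on an Irs1 level under 1 FPKM. With a pseudocount of 1 FPKM the log2 ratios of csMed1-/- over Med1fl/fl were 1.16 for Irs2 and -0.39 for Irs1. Both genes have 2 exons in the annotation. Genes on the opposite strand overlap both of them, and of these only 9530052E02Rik, which overlaps Irs2 by 609 bases, had a row, at 0.177 and 0.487 FPKM. The libraries were directional, but whether strand was used in counting is not stated.

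**Figure D2:**
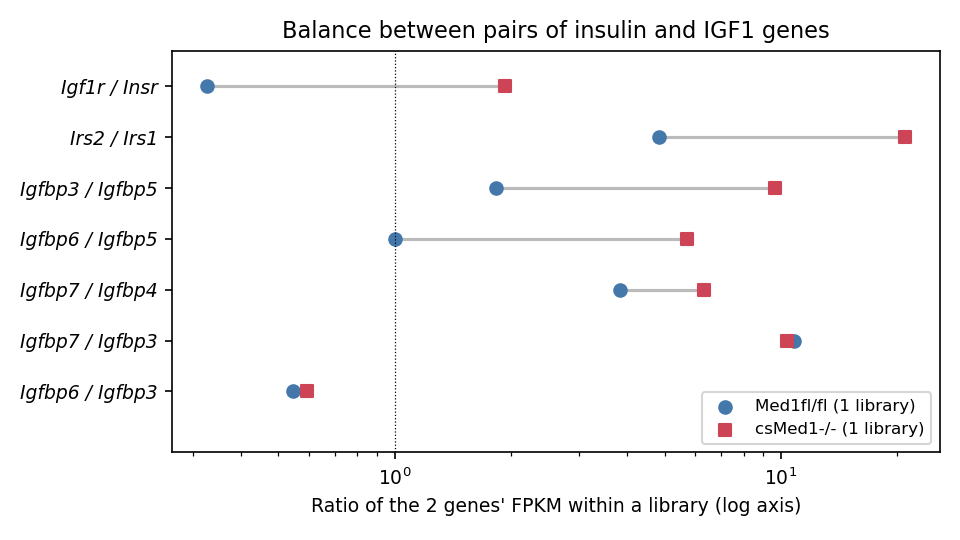
Ratio of the FPKM of 1 gene to that of another within the same library (log axis), for Med1fl/fl (circles) and csMed1-/- (squares), 1 library each. Igf1r over Insr moves from 0.327 to 1.93 and Irs2 over Irs1 from 4.83 to 20.9, whereas Igfbp7 over Igfbp3 and Igfbp6 over Igfbp3 stay nearly in place. Irs1 was at 0.678 FPKM in csMed1-/- heart, so its ratio there rests on a low value.

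Among the binding proteins, Igfbp3, Igfbp6 and Igfbp7 were higher by much the same factor. Igfbp3 (chromosome 11, 7206086 to 7213923, minus strand), which encodes the main carrier of IGFs in blood, had 27.1 FPKM in Med1fl/fl heart and 74.9 FPKM in csMed1-/- heart (2.77-fold, log2 ratio 1.47). Igfbp6 (chromosome 15, 102144362 to 102149511, plus strand), whose product prefers IGF2 over IGF1, had 14.8 FPKM in Med1fl/fl heart and 44.4 FPKM in csMed1-/- heart (3.0-fold, log2 ratio 1.58). Igfbp7 (chromosome 5, 77349240 to 77408041, minus strand) had 293 FPKM in Med1fl/fl heart and 776 FPKM in csMed1-/- heart (2.65-fold, log2 ratio 1.41). Genes as abundant as Igfbp7 also often differed. Of the 306 genes with a mean level within 2-fold of its own, 38.6% passed 2-fold, 19.3% upward and 19.3% downward. The ratio of Igfbp7 to Igfbp3 was 10.8 in Med1fl/fl heart and 10.4 in csMed1-/- heart, and that of Igfbp6 to Igfbp3 was 0.547 and 0.592. The end of Igfbp7 overlaps that of Polr2b on the opposite strand by 85 bases, and Polr2b had 8.41 FPKM in Med1fl/fl heart and 6.57 FPKM in csMed1-/- heart.

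Igfbp4 and Igfbp5 stayed within 2-fold, on opposite sides. Igfbp4 (chromosome 11, 99041244 to 99054392, plus strand), whose product inhibits IGF action until it is cleaved, had 76.5 FPKM in Med1fl/fl heart and 122 FPKM in csMed1-/- heart (1.60-fold, log2 ratio 0.68). Igfbp5 (chromosome 1, 72857932 to 72874884, minus strand), whose product can bind the extracellular matrix, had 14.8 FPKM in Med1fl/fl heart and 7.75 FPKM in csMed1-/- heart (1.91-fold lower, log2 ratio -0.93). In control, Igfbp5 and Igfbp6 were at nearly the same level, with a ratio of Igfbp6 to Igfbp5 of 1.0. In csMed1-/- heart Igfbp6 was 5.73 times as abundant, and Igfbp3 went from 1.83 to 9.67 times the level of Igfbp5.

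The 2 remaining genes of the family, Igfbp1 and Igfbp2, were at 0.479 and 0.134 FPKM in Med1fl/fl heart and at 0.0426 and 0.206 FPKM in csMed1-/- heart, under the level kept. The summed FPKM of Igfbp1 to Igfbp7 came to 427 for Med1fl/fl and 1025 for csMed1-/-, a ratio of 2.4. Without Igfbp7 the sums were 134 and 250 FPKM, a ratio of 1.87. Igfbp7 made up 68.6% of the summed level in Med1fl/fl heart and 75.7% in csMed1-/- heart. The share of Igfbp4 was 17.9% and 11.9%, that of Igfbp3 6.35% and 7.31%, that of Igfbp6 3.47% and 4.33%, and that of Igfbp5 3.46% and 0.755%. The higher family total thus came with nearly the same order of members, and of the 5 kept genes Igfbp5 lost the largest part of its own share.

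**Figure D3:**
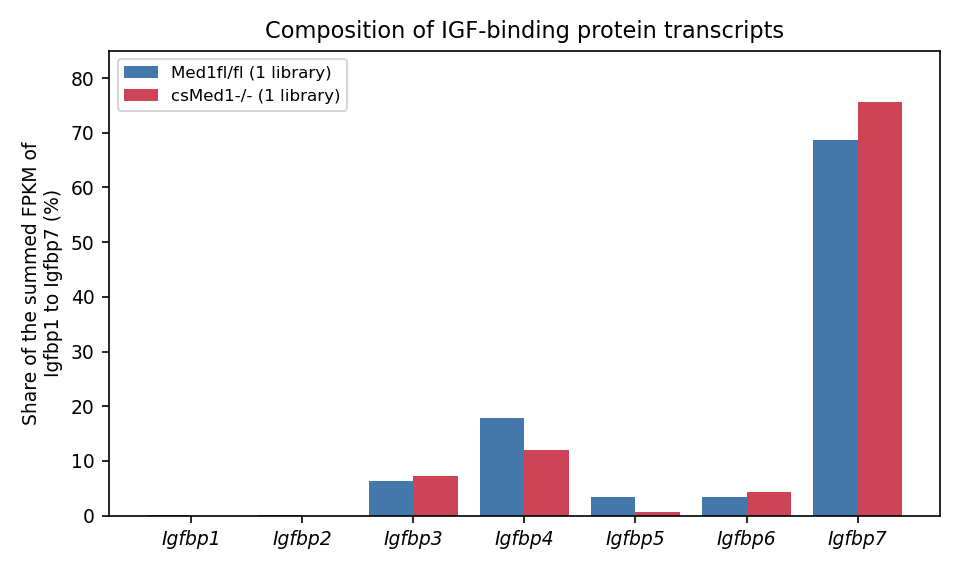
Share (%) of each IGF-binding protein gene in the summed FPKM of Igfbp1 to Igfbp7, for the Med1fl/fl library and the csMed1-/- library (bars, 1 library each). Igfbp7 holds 68.6% and 75.7%, and Igfbp5 falls from 3.46% to 0.755%.

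IGF-binding proteins are made largely by stromal and vascular cells. The ratios of Igfbp3, Igfbp6 and Igfbp7 ran from 2.65 to 3.0. Beside these, the single log2 ratios of the 8 fibroblast markers ran from -1.11 (Lum) to 4.13 (Postn), 5 above 0 and 3 below. The summed fibroblast ratio was 2.37 with all markers and 1.36 without Col1a1 and Col1a2. The summed ratio of the endothelial markers was 0.766, with 1 marker more than 2-fold higher and 3 lower. For the markers of smooth muscle and pericytes it was 1.52, and 0.674 without Cnn1. Whether these markers and the binding proteins moved together through cell numbers was not tested. In bulk tissue more or fewer cells of a type cannot be told apart from more or less RNA per cell.

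In control heart the 10 genes ranked, from the highest FPKM, as Igfbp7, Igfbp4, Igfbp3, Igfbp6, Igfbp5, Irs2, Insr, Igf1r, Irs1 and Igf1. In csMed1-/- heart the order was Igfbp7, Igfbp4, Igfbp3, Igfbp6, Irs2, Igf1r, Igfbp5, Insr, Igf1 and Irs1. The first 4 places were the same, whereas Igf1r passed Insr and Igfbp5, Irs2 passed Igfbp5, and Igf1 passed Irs1. With 1 library per genotype, no spread is available to say which neighbours in either order differ.

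**Figure D4:**
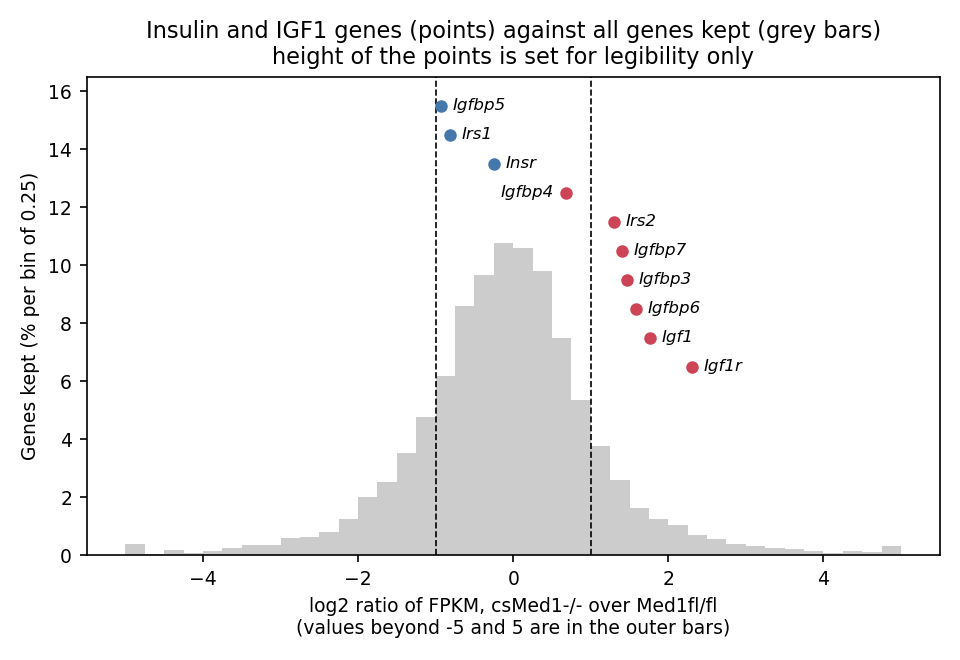
Log2 ratio of csMed1-/- over Med1fl/fl FPKM for the 10 genes (points, each at its value on the horizontal axis) over the distribution for all 10489 genes kept (grey bars, % of genes per bin), with dashed lines at 2-fold. Irs2, Igfbp7, Igfbp3, Igfbp6, Igf1 and Igf1r lie beyond the upper line, and Igfbp5 lies just inside the lower one.

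The other genes of the pathway were taken from lists by role. Of 65 such genes all had a row and 49 were kept, of which 10 were more than 2-fold higher, 7 lower and 32 within 2-fold. That is 34.7% past 2-fold, close to the 31.5% of all genes kept, and the median log2 ratio was 0.07 against -0.07 over all genes.

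Among ligands and receptors, Igf2, the fetal growth factor, had 27.2 FPKM in Med1fl/fl heart and 10.2 FPKM in csMed1-/- heart (log2 ratio -1.41), opposite to Igf1. Igf2 was 64.3 times as abundant as Igf1 in Med1fl/fl heart and 7.12 times in csMed1-/- heart. The first of these ratios rests on an Igf1 level of 0.423 FPKM. The insulin genes, named outside the rule for naming genes, were not kept. Ins1 was listed at 0 in both libraries, and Ins2 had 0.263 FPKM in Med1fl/fl heart and was listed at 0 in csMed1-/- heart. Igf2r, whose product clears IGF2, stood at 21.3 and 19.6 FPKM (log2 ratio -0.12).

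Of 11 adaptors and receptor-proximal regulators kept, besides the docking proteins, 4 were more than 2-fold higher and 1 lower. That is 45.5% of these few genes, beside 31.5% of all genes kept. The lower one was Grb14, which encodes an adaptor that inhibits the insulin receptor, at 80.3 FPKM in Med1fl/fl heart and 12.2 FPKM in csMed1-/- heart (log2 ratio -2.72). It had the largest ratio in either direction of all 49 genes. Socs3, an inhibitor of cytokine and insulin receptor signalling, had 3.02 and 8.89 FPKM (log2 ratio 1.56). Ptpn1, the phosphatase that acts on the insulin receptor, had 11.9 and 25.5 FPKM (1.10). Shc1, which encodes an adaptor, had 20.4 and 41.0 FPKM (1.0, just past 2-fold). Sh2b2, an adaptor of the insulin receptor named after its values were seen, had 0.650 and 2.25 FPKM and was kept through the csMed1-/- library.

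The 4 other kept regulators of the binding proteins included 2 more than 2-fold higher, Stc2 and Stc1, which encode stanniocalcins, inhibitors of the IGFBP-cleaving protease PAPP-A. That is 50% of only 4 genes, beside 31.5% of all genes kept. Stc2 had 11.2 and 23.0 FPKM (log2 ratio 1.04), and Stc1, named after its values were seen, had 0.386 and 1.03 FPKM (1.42) and was kept through the csMed1-/- library. With a pseudocount of 1 FPKM both were within 2-fold, at log2 ratios of 0.98 and 0.55. Pappa, the gene of PAPP-A, named outside the rule for naming genes, had only 0.0120 FPKM in Med1fl/fl heart and 0.0240 FPKM in csMed1-/- heart and was not kept. Htra1, a secreted protease, had 127 and 140 FPKM (0.14), and Igfals, whose product joins IGF and IGFBP3 in a blood complex, had 5.85 and 4.61 FPKM (-0.34).

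In the PI3K-Akt branch 19 of 22 genes were kept, 2 more than 2-fold higher and 4 lower. That is 31.6% past 2-fold, much as the 31.5% of all genes kept. Tbc1d4, the Akt substrate that controls Glut4 traffic, had 5.57 FPKM in Med1fl/fl heart and 1.66 FPKM in csMed1-/- heart (log2 ratio -1.75). The phosphatase genes past 2-fold were both lower. Inppl1, whose product removes a phosphate from the lipid made by PI3-kinase, had 70.7 and 32.7 FPKM (-1.11). Phlpp1, which encodes an Akt phosphatase, had 9.26 and 4.56 FPKM (-1.02). Trib3, which encodes a pseudokinase that binds Akt, was on the higher side. It had 3.99 and 9.25 FPKM (1.22). The other genes past 2-fold, both regulatory subunits of PI3-kinase named after their values were seen, were Pik3r1 at 2.26 and 0.808 FPKM and Pik3r3 at 0.343 and 1.71 FPKM, each kept through the library in which it was higher. The median log2 ratio of the branch was -0.31. Akt1 and Akt2, the kinases of the branch, which the naming rule had not chosen, were at 179 and 135 FPKM and at 171 and 192 FPKM.

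In the mTOR branch 13 of 16 genes were kept, 2 more than 2-fold higher and 1 lower, with a median log2 ratio of 0.19. That is 23.1% past 2-fold, beside 31.5% of all genes kept. Mtor itself had 12.0 and 24.8 FPKM (log2 ratio 1.04), and Rps6kb2, an S6 kinase gene, had 11.0 and 31.8 FPKM (1.53). Eif4e, the cap-binding translation factor, had 18.7 and 6.66 FPKM (-1.49). Akt1s1, which encodes an inhibitor of mTOR complex 1 that Akt phosphorylates, had 89.7 and 176 FPKM (0.97).

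**Figure D5:**
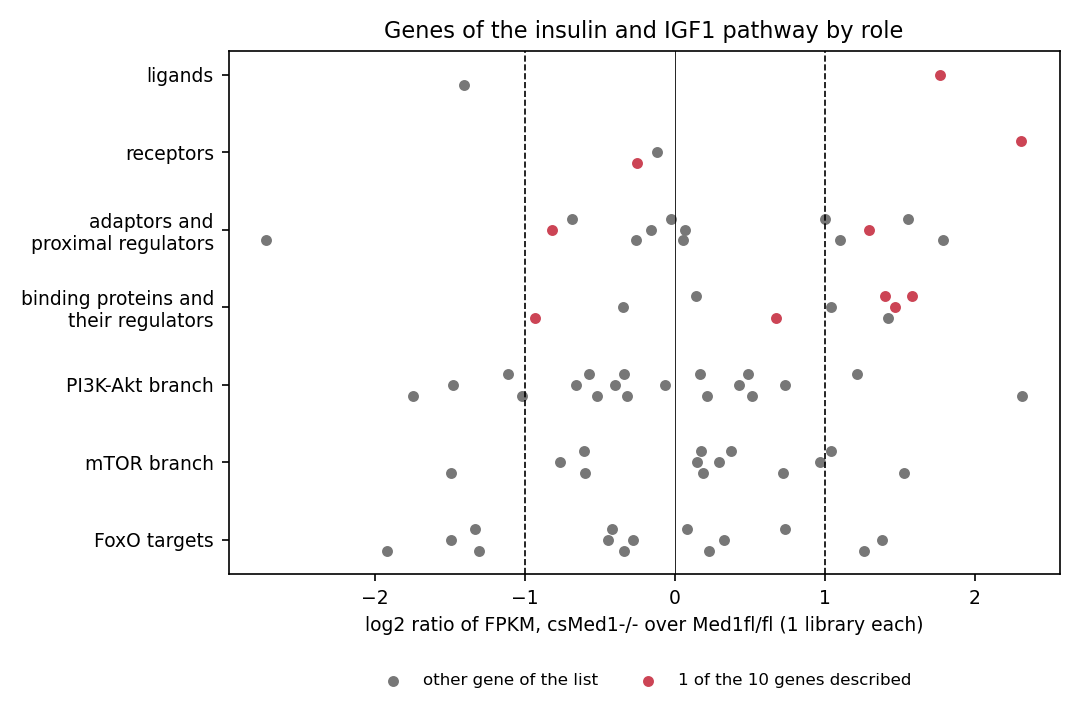
Log2 ratio of csMed1-/- over Med1fl/fl FPKM (1 library each) for the kept genes of each list, with the 10 genes described in red, other genes in grey and dashed lines at 2-fold. The PI3K-Akt and mTOR genes scatter on both sides of 0, with branch medians of -0.31 and 0.19, and Grb14 is the lowest point at -2.72.

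FoxO transcription factors are held out of the nucleus when Akt is active, and a list of 14 genes known to respond to them was set beside the pathway. All 14 were kept. Of these 2 were more than 2-fold higher, 4 lower and 8 within 2-fold, with a median log2 ratio of -0.31. That is 42.9% of the list past 2-fold, 14.3% higher and 28.6% lower, beside 31.5%, 13.6% and 18% of all genes kept, and with 14 genes nothing particular to the list can be read from it. The lowest ratio was that of Bcl6, a transcriptional repressor gene, at 5.70 FPKM in Med1fl/fl heart and 1.51 FPKM in csMed1-/- heart (log2 ratio -1.92). Trim63, which encodes the muscle ubiquitin ligase MuRF1, had 85.4 and 30.3 FPKM (-1.49). Sod2, the gene of mitochondrial superoxide dismutase, had 380.1 and 151 FPKM (-1.33). These were joined by the stress-responsive sestrin gene Sesn1, at 27.5 and 11.1 FPKM (-1.31). The higher ones, named after their values were seen, were the autophagy gene Gabarapl1 at 51.5 and 124 FPKM (1.26) and Sesn3 at 0.867 and 2.26 FPKM (1.38), kept through the csMed1-/- library. The list as a whole did not go one way.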

How the data were processed

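Poly(A)-selected heart RNA, pooled from 5 mice per genotype, was sequenced as directional single-end libraries, 1 per genotype. Per the study's methods, reads were aligned to mm10 with TopHat 2.0.8b, and known UCSC genes were quantified with Cufflinks and compared with Cuffdiff 2.1.1. The study's own lists of differing genes hold Igf1r as upregulated and Grb14 as downregulated. The processing notes also name STAR 2.4.0h, Bowtie2 and DESeq2, without a role. The authors deposited the resulting FPKM values, already scaled by library. The scaling method is not given in the sources used here. Read counts are not in these files, so counting precision is unknown.

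Rows sharing a symbol (412 symbols) were summed. Genes detected in either pool at 1 FPKM or more, and above 0 in the other, were kept, and csMed1-/- FPKM was divided by Med1fl/fl FPKM and counted past 2-fold. With 1 library per genotype no test was made here. The 10 genes, the gene lists and the markers were chosen with earlier results of these data known. In each list the text names up to 4 genes, those with the largest ratio at 3 FPKM or more, and Igf2. Igfbp1 and Igfbp2 are given outside this rule to complete their family, and others are marked. Markers were planned as counts, medians and sums only, so the markers named singly fall outside that plan. With 2 libraries no gene was named for a like pattern. Gene positions came from GENCODE M21 (GRCm38, the same assembly as mm10) and promoters from RefSeq. The alternatives were pseudocounts of 0.1 and 1 FPKM, filters of 0 and 10 FPKM, 3 other scalings, the highest row of each symbol and a 4-fold threshold. After the values were seen, marker sums without the genes that dominated them were added. Only the ratio and the 2-fold count were run on simulated data, with changes and noise set in advance. That run checks the arithmetic and says nothing about the spread of the real values. Python 3.11.15, numpy 2.4.6, pandas 2.3.3 and matplotlib 3.10.9 were used.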

Additional observations from a re-analysis of the deposited data

How the results depend on the processing

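The log2 ratios of the 10 genes kept their sign under every alternative that could be computed for them, 76 values in all, and 75 stayed within 1.5-fold of the reported ratio, a limit set because no replicate spread exists. The exception was Igf1 with a pseudocount of 1 FPKM, at 0.78, which left 5 of the 10 genes more than 2-fold higher. Most of these values could hardly have come out otherwise. A pseudocount cannot change a sign, and the filters and the choice of row leave the ratios of these genes as they are. Each scaling shifts all genes alike. The kept signs therefore say little about how reliable the ratios are. With at least 10 FPKM in either library, 6 of the 10 genes were kept and 4 were more than 2-fold higher. Past 4-fold, 1 of the 10 genes was higher, as were 1 of the pathway genes and 0 FoxO targets, while 1 pathway gene and 0 FoxO targets were lower, so 1, 2 and 0 genes of these lists passed in all. Over all genes 992 passed 4-fold, 453 higher and 539 lower. A pseudocount of 1 FPKM left 10 of 49 pathway genes past 2-fold, 5 of them higher, and 1 higher FoxO target, while over all genes it left 2372 of 10489, 1081 higher and 1291 lower. The pathway genes it brought within 2-fold were Shc1, Sh2b2, Stc1, Stc2, Mtor, Pik3r1 and Phlpp1. With at least 10 FPKM in either library 9 of the 29 pathway genes kept passed 2-fold, 5 higher and 4 lower, 1 of 9 FoxO targets was higher, and over all genes 1706 of 5426 passed, 821 higher and 885 lower. With no filter beyond detection in both libraries 5686 of 15930 genes passed, 2504 higher and 3182 lower. No other scaling of the libraries moved the number of these 10 genes past 2-fold, and leaving out a replicate was not possible with 1 library per genotype. No paired analysis was possible because each genotype has 1 pooled library and no test was made. The number of reads behind each FPKM value is unknown, which limits the low genes Igf1 and Irs1 most.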
